A study of Homo sapiens with 28 samples.

Results

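HepG2 tumours grown in ovo were compared with HepG2 cultures. The comparison used 7 of the 28 libraries of the series, 4 from tumours and 3 from cultures, chosen by the cell line and the growth condition in their labels. It covered every gene of a human amplicon panel, of which 13100 of 18961 were read deeply enough to be tested and 5861 were not. The series applied the same design to 3 further liver cancer lines, Hep3B, HuH7 and PLC/PRF/5, whose 21 libraries served here to estimate the spread between replicates and to test where the HepG2 response differed.

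HepG2 is a human hepatoblastoma line, an embryonal type of liver tumour, and it still makes many of the plasma proteins that the liver secretes. The chorioallantoic membrane is the vascularised outer membrane of the chick embryo, and human tumour cells placed on it grow into tumours that are fed by chick vessels, in a host whose immune system is still immature. Such a graft exposes the cells to a solid architecture, a blood supply and embryonic serum factors that a plastic dish lacks.

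In the in ovo group, HepG2 cells had been grafted on the membrane of White Leghorn eggs on embryonic day 9 and the tumours had been collected on embryonic day 18. The in vitro group was the same line kept in culture, and the labels name no drug, transgene or other treatment in either group. RNA was purified with an RNeasy Midi kit from tumours and an RNeasy Mini kit from cultures, so kit and growth condition cannot be told apart. The column headers of the HepG2 tumours and the HepG2 cultures also begin with different codes, whose meaning no label gives. If these codes are plate positions, plate position and growth condition cannot be told apart either. Whether each replicate stands for its own egg or dish is not labelled, so the p-values measure only the spread between these libraries. HepG2 is a single line, and a tumour taken as a whole also holds chick tissue, which the panel was not designed to read.

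Each library was made from 500 ng of RNA by targeted amplification, in which 1 short amplicon of a messenger RNA stands for its gene. Levels are given as CPM, reads scaled to a library total of 1000000, after TMM scaling, a correction for differences in RNA composition between libraries. Values are listed in the order of replicates 1 to 3 for cultures and 1 to 4 for tumours. The difference between conditions is a log2 fold change of CPM + 1, in ovo over in vitro, with its standard error (SE). It came from a limma model over all 28 libraries, and a gene was called when its two-sided p, adjusted over all genes tested by the Benjamini-Hochberg method, was under 0.05. Adding 1 CPM understates the change of weakly read genes, and levels of different genes are not compared because each amplicon has its own yield.

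The HepG2 libraries held 6583399 to 8662998 reads in cultures and 6255590 to 7636335 in tumours. Cultures resembled each other closely, with correlations of log2(CPM + 1) across genes between 0.9942 and 0.9963. Tumours 1, 2 and 4 correlated with each other at 0.9818 to 0.9904, whereas tumour 3 correlated with them at 0.9042 to 0.9401. Tumour 3 also had the lowest TMM factor of the 7 libraries, 0.683 against 0.846 to 1.083. Tumour 2 stood apart in another way: at least 1 read was found for 80.0% of all amplicons there, against 68.1% to 72.5% in the other 6 libraries. For some of the genes where leaving out tumour 3 ended a call, or where it stood far from the other tumours, values are therefore given with and without it.

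The label of a liver lineage was checked against markers of that lineage and of other cell types, as sums of CPM before TMM scaling. The 10 hepatocyte lineage markers, plasma proteins and the factors that drive their genes, summed to 95662 to 98133 CPM in cultures and 156985 to 184895 CPM in tumours. Of these 10, 4 were called higher and 0 lower, where 12.6% and 12.4% of all genes tested were. A larger list of hepatocyte secreted proteins was split, with 21 of 66 tested higher, 17 lower and a median log2 fold change of 0.00. The mainstay of mature liver, albumin (ALB), was weak in both: 24.5, 18.6 and 21.2 CPM in cultures and 44.7, 22.6, 4.08 and 18.4 CPM in tumours after TMM scaling. The ranges of ALB overlapped, and its log2 fold change was -0.31 ± 0.60 (SE, adjusted p = 0.768) with tumour 3 and 0.31 (adjusted p = 0.786) without it. HNF4A, a master regulator of hepatocyte identity, read 1039, 1181 and 1082 CPM in cultures and 1432, 1892, 2099.6 and 2444 CPM in tumours, without overlap but short of the threshold (adjusted p = 0.0555).

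Markers of 5 other cell types were checked. The 8 endothelial markers summed to 9.93 to 12.6 CPM in cultures and 42.6 to 53.4 CPM in tumours, mostly from PECAM1, an adhesion molecule of endothelium and platelets, while KDR, TEK and EMCN were at 3 reads or fewer in each of the 7 libraries. The 10 fibroblast and vessel wall markers summed to 126 to 136 CPM in cultures and 23.7 to 51.0 CPM in tumours, and COL1A2, COL3A1, DCN, LUM and POSTN were at 3 reads or fewer throughout. Leukocyte markers summed to 397 to 432 CPM in cultures and 6.41 to 70 CPM in tumours, nearly all from LYZ, and PTPRC, CD3E, CSF1R and ITGAM were at 3 reads or fewer. Of the erythroid list only 3 of 8 genes were on the panel, and they summed to at most 1.95 CPM in any library. The 8 markers of stratified epithelium summed to at most 3.51 CPM. Some other markers of these lists were read well above the floor, and others near it. PECAM1 read 9.11, 8.82 and 6.95 CPM in cultures and 48.1, 44.5, 53.8 and 45.5 CPM in tumours after TMM scaling (log2 fold change 2.40 ± 0.28 SE, adjusted p = 3.74e-07), and CDH5, the cadherin of endothelium, was called higher at no more than 3.26 CPM (adjusted p = 0.00555). ACTA2, smooth muscle actin, was also called higher (11.9 ± 2.25 CPM, SD, n = 3, against 27.6 ± 3.97 CPM, n = 4; adjusted p = 0.00101), while TAGLN and PDGFRB were called lower, from means of 90.6 and 17.6 CPM to 10 and 3.36 CPM. Of 8 tested fibroblast and vessel wall markers 1 was called higher and 3 lower, and of 4 tested leukocyte markers 0 and 2. The ACTA2 call was lost in edgeR's test on the recovered reads (adjusted p = 0.0504) and that of CDH5 without tumours 2 and 3 (adjusted p = 0.209). The part of these markers in the other results was not tested.

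In HepG2, 1651 genes (12.6% of those tested) were called higher in ovo and 1629 (12.4%) lower. Of these, 883 and 1047 differed by at least 2-fold. In 1565 of the higher genes (94.8%) and 1556 of the lower (95.5%) no tumour value fell within the range of the cultures. Calling selects genes whose groups lie apart, and the share over all genes tested was not computed, so these shares add no support. Without tumour 3, 1400 genes were called higher (10.7%) and 1358 lower (10.4%) of 13081 tested in both fits. Of the genes called with all 4 tumours, 1255 higher and 1235 lower ones remained called without tumour 3, and 387 and 394 lost their call. No gene called in both fits changed sign. When libraries were scaled to total reads in place of TMM, the median gene shifted by -0.18 (log2) and the split became 1199 higher against 2080 lower. In whole tumours and cultures, fewer cells of a type and less RNA per cell cannot be told apart.

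Genes with the highest fold changes outside the usual liver, cell cycle and stress lists come first. They were chosen among called genes whose conditions do not overlap, so their separation follows from the choice. TLR2, the cell surface receptor for bacterial lipopeptides, read 0.701, 1.59 and 1.10 CPM in cultures and 21.0, 28.2, 65.7 and 29.7 CPM in tumours (log2 fold change 4.01 ± 0.28 SE, adjusted p = 9.32e-11). The lowest tumour lay far above the highest culture, and without tumour 3 the fold change was 3.70. Its amplicon lies at chr4:153704548-153704723 on GRCh38. PPP1R1A, an inhibitor of protein phosphatase 1 that responds to cyclic AMP, had no read in any culture and 17.2, 16, 42.4 and 17.6 CPM in tumours. The floor of 3 reads in a library was 0.421 CPM in the culture where it was highest. Against that floor, the mean of PPP1R1A in tumours was at least 55.4-fold higher (adjusted p = 3.57e-10).

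ENPP2 encodes autotaxin, the secreted enzyme that makes lysophosphatidic acid. It read 1.96, 1.96 and 3.97 CPM in cultures and 40.6, 53.1, 66.7 and 52.3 CPM in tumours (log2 fold change 3.92 ± 0.20 SE, adjusted p = 3.01e-13), with every tumour above every culture. GATM, the mitochondrial enzyme that begins creatine synthesis, read 4.07, 3.31 and 3.53 CPM in cultures and 31.2, 31.3, 83.8 and 46.3 CPM in tumours (3.29 ± 0.28 SE, adjusted p = 2.73e-09). ETNK2, an ethanolamine kinase of phospholipid synthesis, read 16.1, 19.5 and 18.3 CPM in cultures and 134, 132, 175 and 153 CPM in tumours (2.97 ± 0.22 SE, adjusted p = 1.76e-10). For both enzymes tumour 3 was the highest of the 4, and the fold changes without it were 2.99 and 2.89.

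PTGDR2, a receptor for prostaglandin D2, rose from 21.2, 29.4 and 26 CPM in cultures to 169, 209, 237 and 267 CPM in tumours (3.05 ± 0.35 SE, adjusted p = 2.73e-07). TMPRSS6, the liver protease that restrains hepcidin expression, rose from 2.38, 2.33 and 4.08 CPM to 17.8, 25.8, 46.1 and 31.6 CPM (2.95 ± 0.35 SE, adjusted p = 4.95e-07). Complement factor D (CFD), the protease that starts the alternative pathway, read 1.40, 1.35 and 2.54 CPM in cultures and 7.64, 14.5, 49.1 and 22.0 CPM in tumours (2.87 ± 0.77 SE, adjusted p = 0.00688). The tumours spread widely for CFD, and without tumour 3 its fold change was 2.43 (adjusted p = 0.0290). NPNT, a matrix ligand of integrin alpha 8 beta 1, had 23.4, 25.2 and 29.8 CPM in cultures and 120.2, 161, 567 and 192 CPM in tumours (3.00 ± 0.40 SE, adjusted p = 2.92e-06). Tumour 3 again exceeded the others, and the value without it was 2.53. The further genes among the 14 highest, FYB2, UNC93A, PPP2R2C, CRIP3 and HIST1H2BM, had log2 fold changes of 2.84 to 3.46, and all 14 kept their call without tumour 3.

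CRIP3, a LIM domain protein, is a case of overlapping genes. It read 0.280, 0.857 and 1.54 CPM in cultures and 12.3, 14.7, 44.1 and 16.4 CPM in tumours, and SLC22A7, an organic anion transporter of hepatocytes, read 0.140, 0.122 and 0.221 CPM against 15.6, 13.2, 6.93 and 14.6 CPM. Both rose without overlap, by 3.46 ± 0.32 and 3.49 ± 0.30 (SE) on the log2 scale. Their gene spans share 5829 bases on opposite strands of chromosome 6, the amplicons lie at chr6:43306080-43306284 and chr6:43304119-43304717, and 0 ends of either amplicon fall in an exon of the other gene. In tumour 3 CRIP3 was at its highest and SLC22A7 at its lowest among the tumours.

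**Figure D1:**
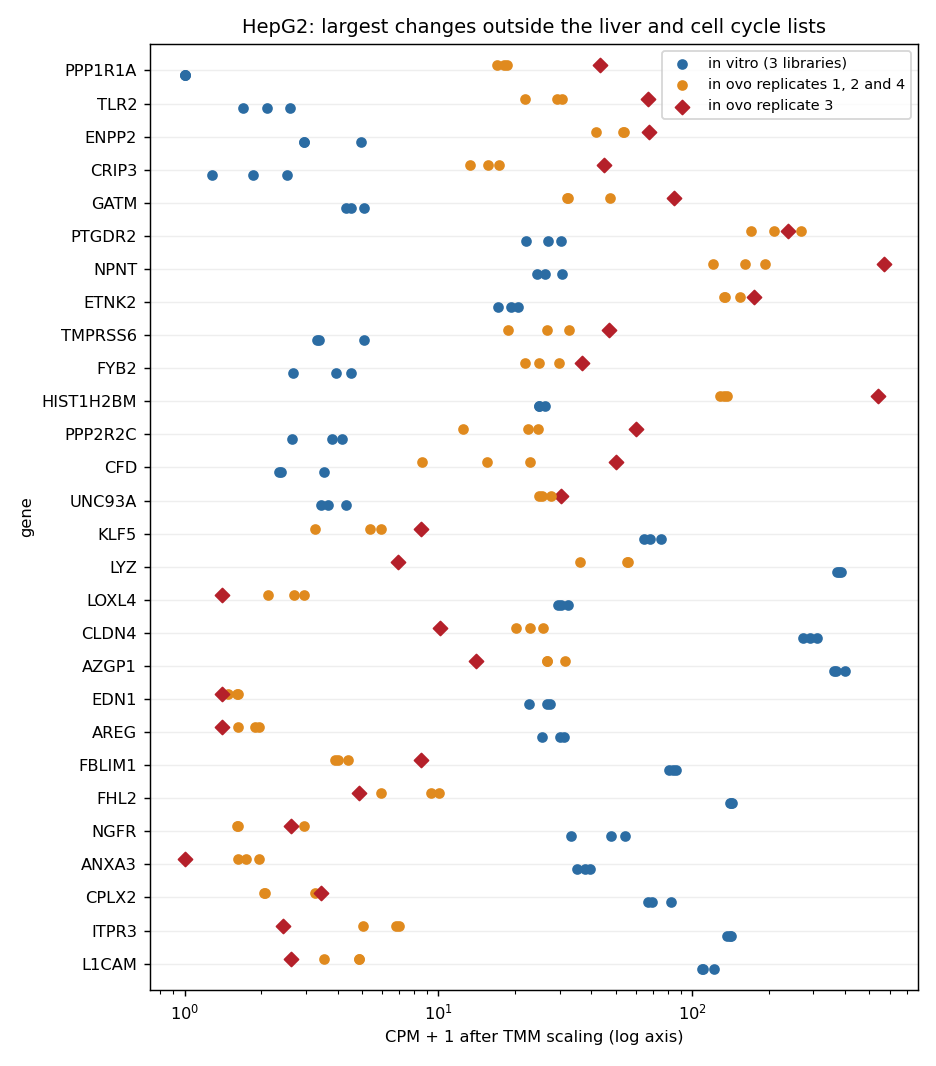
CPM + 1 after TMM scaling (log axis) in each HepG2 library for the 14 highest and 14 lowest fold changes outside the usual lists, with 1 point per library, cultures and tumours in different colours and tumour 3 marked apart. The 28 genes were chosen among genes whose groups do not overlap, and tumour 3 lies above the other tumours for TLR2, NPNT and CFD.

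Genes with the lowest fold changes outside the usual lists follow, also chosen among genes whose conditions do not overlap. L1CAM, a neural cell adhesion molecule also found in invasive tumours, fell from 108, 121 and 109.5 CPM in cultures to 2.55, 3.87, 1.63 and 3.87 CPM in tumours (-4.88 ± 0.28 SE, adjusted p = 2.63e-12; amplicon at chrX:153863920-153864368). ITPR3, a calcium release channel of the endoplasmic reticulum, fell from 136, 140.3 and 141 CPM to 6.0, 5.81, 1.43 and 4.02 CPM (-4.83 ± 0.36 SE, adjusted p = 1.91e-10). CPLX2, a complexin that clamps vesicle fusion in neurons, fell from 66.0, 68.2 and 81.2 CPM to 1.05, 2.26, 2.45 and 1.08 CPM (-4.78 ± 0.16 SE, adjusted p = 1.51e-16). For each of these genes all 4 tumours lay below all 3 cultures by a wide margin.

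ANXA3, a calcium-dependent phospholipid-binding protein, read 36.9, 38.6 and 34.3 CPM in cultures and 0.749, 0.968, 0 and 0.619 CPM in tumours (-4.61 ± 0.28 SE, adjusted p = 5.16e-12). FHL2, a LIM domain cofactor at focal adhesions and in the nucleus, read 139.5, 141 and 142 CPM in cultures and 4.95, 9.04, 3.87 and 8.36 CPM in tumours (-4.30 ± 0.25 SE, adjusted p = 1.80e-12). FBLIM1, which links filamin to integrin complexes, read 85.4, 83.0 and 80.1 CPM in cultures and 3.00, 2.91, 7.55 and 3.41 CPM in tumours (-4.09 ± 0.20 SE, adjusted p = 1.27e-13). The cultures were nearly level for all 3 genes, and tumour 3 was the lowest tumour for ANXA3 and FHL2 but the highest for FBLIM1.

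Among secreted ligands, amphiregulin (AREG), which activates the EGF receptor, fell from 29, 24.5 and 30.3 CPM to 0.899, 0.968, 0.408 and 0.619 CPM (-4.08 ± 0.29 SE, adjusted p = 1.07e-10). Endothelin 1 (EDN1), a peptide that constricts vessels, fell from 26.5, 25.7 and 21.8 CPM to 0.600, 0.484, 0.408 and 0.619 CPM (-4.07 ± 0.26 SE, adjusted p = 1.34e-11). Neither ligand reached 1 CPM in a tumour. Lysozyme (LYZ), a bactericidal enzyme that also marks myeloid cells, read 385, 377 and 371 CPM in cultures and 55, 54.6, 5.91 and 35.0 CPM in tumours (-3.67 ± 0.48 SE, adjusted p = 2.21e-06). Tumour 3 held the lowest LYZ value, and without it the fold change was -2.97. NGFR, the low-affinity neurotrophin receptor, AZGP1, a secreted lipid-mobilising glycoprotein, CLDN4, a tight junction claudin, KLF5, a zinc finger factor of proliferating epithelia, and LOXL4, a lysyl oxidase, made up the rest of the 14, with log2 fold changes from -4.39 to -3.66. All 14 kept their call without tumour 3.

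By absolute level, the 8 largest gains were those of IGF2, APOA1, TF, DKK1, AFP, HIST1H2AJ, GLUD1 and PEG10. APOA1, the chief apolipoprotein of HDL, rose from 3345, 4056 and 4188 CPM to 22547, 29027, 56342 and 31997 CPM (3.10 ± 0.37 SE, adjusted p = 7.37e-07), and AFP, the fetal counterpart of albumin, from 7812, 7689 and 7914 CPM to 27899.6, 24153, 19717 and 22268 CPM (1.58 ± 0.25 SE, adjusted p = 2.76e-05). Both separated the conditions, with tumour 3 the highest for APOA1 and the lowest for AFP. IGF2, the fetal growth factor, read 10079, 13191 and 11911 CPM in cultures and 58310.1, 83304, 27489.6 and 117591 CPM in tumours (2.43 ± 0.54 SE, adjusted p = 0.00141). All tumours exceeded all cultures, and tumour 3 was the lowest of the 4, so the fold change without it was 2.83. The IGF2 amplicon matches transcripts of 3 annotated genes at chr11:2133191-2133634, and the assignment is uncertain. DKK1, a secreted antagonist of Wnt signalling, rose from 1523, 1749 and 1559 CPM to 7173, 9901, 23901 and 11106 CPM (2.87 ± 0.47 SE, adjusted p = 4.87e-05), and its fold change without tumour 3 was 2.52.

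Transferrin (TF), the iron carrier of plasma, rose from 15671, 16607 and 15623 CPM to 34022, 38501, 60892 and 45553 CPM (1.45 ± 0.32 SE, adjusted p = 0.00135). GLUD1, glutamate dehydrogenase of mitochondria, rose from 1672, 1862 and 1806 CPM to 4754, 5505, 10434 and 6242 CPM (1.85 ± 0.29 SE, adjusted p = 3.24e-05). PEG10, an imprinted gene derived from a retrotransposon, read 4197, 5137 and 4724 CPM against 5414, 7697, 12411 and 10552 CPM, and its call (0.88, adjusted p = 0.0428) was lost without tumour 3 (0.70, adjusted p = 0.139). HIST1H2AJ, a histone H2A gene of the chromosome 6 cluster, had 854, 890.2 and 889 CPM in cultures and 3154, 3103, 19996 and 3612 CPM in tumours. Tumour 3 lay far above the other tumours for HIST1H2AJ, whose fold change was 2.55 (adjusted p = 0.00412) with tumour 3 and 1.90 (adjusted p = 0.0194) without it.

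Several abundant plasma proteins moved the other way. Apolipoprotein A2 (APOA2) fell from 12265, 11546 and 11731 CPM to 5222, 4958, 5429 and 3780.0 CPM (-1.30 ± 0.31 SE, adjusted p = 0.00260). SERPINA3, an inhibitor of chymotrypsin-like proteases, read 4734, 4683 and 4821 CPM in cultures and 1268, 1306, 1782 and 1049 CPM in tumours (-1.84 ± 0.32 SE, adjusted p = 9.94e-05), but its amplicon matches 2 genes. Fetuin A (AHSG) fell from 7442, 6566 and 7106 CPM to 4031, 4074, 2249.7 and 3829 CPM (-1.03 ± 0.28 SE, adjusted p = 0.00869). These genes were lower in each of the 4 tumours than in any culture.

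For 3 further abundant genes the call was lost without tumour 3, and likewise without any single culture. Complement C3, the central component of the cascade, read 9824, 11356 and 10552 CPM in cultures and 5501, 6541, 1162 and 6092 CPM in tumours, and its log2 fold change was -1.40 (adjusted p = 0.0491) with tumour 3 and -0.81 (adjusted p = 0.227) without it. For GPC3, a proteoglycan used as a marker of liver cancer, the values were -0.93 (adjusted p = 0.0270) and -0.74 (adjusted p = 0.101), and for A2M, the protease trap of plasma, -0.89 (adjusted p = 0.0197) and -0.78 (adjusted p = 0.0611), so the fold changes of GPC3 and A2M moved little. AKR1C1, a cytosolic ketosteroid reductase, fell from 3128, 3206 and 3225 CPM to 661, 634, 1036 and 764 CPM (-2.07 ± 0.38 SE, adjusted p = 1.97e-04) and kept its call without tumour 3. The group values of AKR1C1 were far apart, and here tumour 3 was the highest of the 4.

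Some called genes were close to unread in one condition. Among genes averaging at least 5 CPM where they were read, 11 had 3 reads or fewer in every culture and 9 had 3 reads or fewer in every tumour. Besides PPP1R1A and SLC22A7, the genes read mainly in tumours included ALLC, an allantoicase homologue, with 0.140, 0 and 0.221 CPM in cultures and 6.90, 9.68, 16.5 and 11.5 CPM in tumours. BHMT, which remethylates homocysteine with betaine in liver, had 0.280, 0.367 and 0.221 CPM against 16.9, 10.2, 4.49 and 11.6 CPM. RDH16, a retinol dehydrogenase of liver, had 0, 0.122 and 0.110 CPM against 6.75, 8.07, 11.8 and 9.6 CPM. Each is known from adult liver or from metabolism. The tumour values exceeded all culture values, which the choice of genes had limited to 3 reads. TIAM1, an exchange factor that activates RAC1, had 0, 0 and 0.110 CPM against 8.09, 7.75, 7.55 and 10.7 CPM (3.19 ± 0.18 SE, adjusted p = 8.53e-13).

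The genes read mainly in cultures were regulators and adhesion genes. TNS4, a tensin of focal adhesions, had 10.1, 12.9 and 12.1 CPM in cultures and 0.150, 0, 0 and 0.155 CPM in tumours (-3.56 ± 0.19 SE, adjusted p = 3.20e-13). KLF9, a zinc finger factor induced by glucocorticoids, had 12.5, 12.6 and 12.5 CPM against 0.300, 0.323, 0.204 and 0.155 CPM (-3.44 ± 0.25 SE, adjusted p = 1.07e-10). RBM24, an RNA-binding splicing regulator best known from muscle, had 8.69, 9.55 and 9.70 CPM against 0, 0.161, 0 and 0.464 CPM (-3.17 ± 0.14 SE, adjusted p = 1.42e-14). That no tumour held more than a trace of these transcripts follows from the limit of 3 reads by which they were chosen. ITGA10, an integrin subunit that binds collagen, ATOH8, a bHLH factor, and FOS, the immediate early AP-1 subunit, completed the 6, with log2 fold changes of -3.07, -2.98 and -5.41.

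Gene families outside the liver, cell cycle and stress sets were then counted against the background of 12.6% higher and 12.4% lower. Over all genes tested the median log2 fold change was 0.00. Histones were the family with the highest share of higher calls, 42 of 72 tested (58.3%) with 3 lower and a median of 1.18. Without tumour 3 the histone counts were 28 higher and 3 lower, with a median of 0.81, and histones in tumour 3 lay at a median of 0.73 (log2) above the other 3 tumours. Lysosomal enzymes and membrane proteins had the highest share of lower calls among these families, 21 of 42 (50%) with 0 higher and a median of -0.61, and 17 lower without tumour 3.

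The histone change lay in the replication-dependent clusters, whose genes supply new chromatin in S phase and make messages without a poly(A) tail. Of 61 tested cluster histones, 40 were called higher and 2 lower, with a median of 1.35. By type, the higher calls were 10 of 13 for H2A, 12 of 16 for H2B, 8 of 13 for H3, 8 of 13 for H4 and 2 of 6 for the linker histone H1. Without tumour 3 they were 8, 9, 5, 4 and 2 in that order. Of the 11 histones outside the clusters 2 were higher and 1 lower, and 0 of them were higher without tumour 3. Cluster histones resemble each other in sequence, and 47 of the 61 amplicons matched 1 gene. Of these 47, 29 were called higher.

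HIST1H2BM, an H2B gene, read 25.2, 24 and 23.8 CPM in cultures and 132, 128, 539 and 136 CPM in tumours (2.90 ± 0.55 SE, adjusted p = 2.86e-04), and its amplicon could not be placed on the genome. HIST2H3C, an H3 gene whose amplicon matches 2 genes, read 8.55, 9.79 and 9.15 CPM in cultures and 38.7, 36.2, 273 and 45.7 CPM in tumours (2.70 ± 0.64 SE, adjusted p = 0.00264). In both, tumours 1, 2 and 4 were close together above the cultures and tumour 3 was several times higher again. Their calls remained without tumour 3, at 2.39 and 2.01. Under total-read scaling the histone median was 0.92, and with amplicon length and GC content both regressed out it was 0.85, so the direction of the family held under both settings.

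Protocadherins were the other surface family on the higher side. Among 61 cadherins and protocadherins, which are calcium-dependent adhesion molecules, 16 were called higher (26.2%) and 1 lower (1.64%), and without tumour 3 the counts were 12 and 1. Without tumours 2 and 3, a setting chosen after seeing the data, 8 of 66 were higher and 1 lower. The higher calls gathered in the gamma cluster of chromosome 5, with 11 of 21 tested PCDHG genes higher, 0 lower and a median of 0.89. Without tumour 3, 8 PCDHG genes were higher. Of the 21 PCDHG amplicons 17 match 1 gene, and 8 of these 17 were called higher with all 4 tumours. In the alpha and beta clusters 3 of 10 and 1 of 12 were higher, and outside the clusters 1 of 18. PCDHGA10 read 2.38, 2.94 and 2.54 CPM in cultures and 6.90, 13.2, 9.99 and 10.2 CPM in tumours (1.59 ± 0.26 SE, adjusted p = 4.72e-05), and PCDHGA5 read 1.26, 1.59 and 1.32 CPM against 4.50, 5.81, 15.9 and 7.28 CPM (1.83 ± 0.45 SE, adjusted p = 0.00337). The levels are low, but neither gene overlapped between conditions, and the median PCDHG difference of tumour 3 from the other tumours was 0.03.

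Zinc finger genes named ZNF, many of them transcriptional repressors of the KRAB type, leaned the same way by a smaller amount. Of 362 tested, 56 were called higher (15.5%, near the background of 12.6%) and 8 lower (2.21%, against 12.4%), with a median of 0.18. ZNF714 read 3.79, 3.31 and 3.31 CPM in cultures and 12.6, 14.2, 30 and 13.3 CPM in tumours (1.96 ± 0.25 SE, adjusted p = 1.46e-06), and its amplicon matches a transcript annotated as noncoding. ZNF385C read 4.35, 3.80 and 2.54 CPM against 16.6, 15.5, 10.2 and 17.3 CPM (1.80 ± 0.24 SE, adjusted p = 3.15e-06). Both separated the conditions, with tumour 3 highest for ZNF714 and lowest for ZNF385C.

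**Figure D2:**
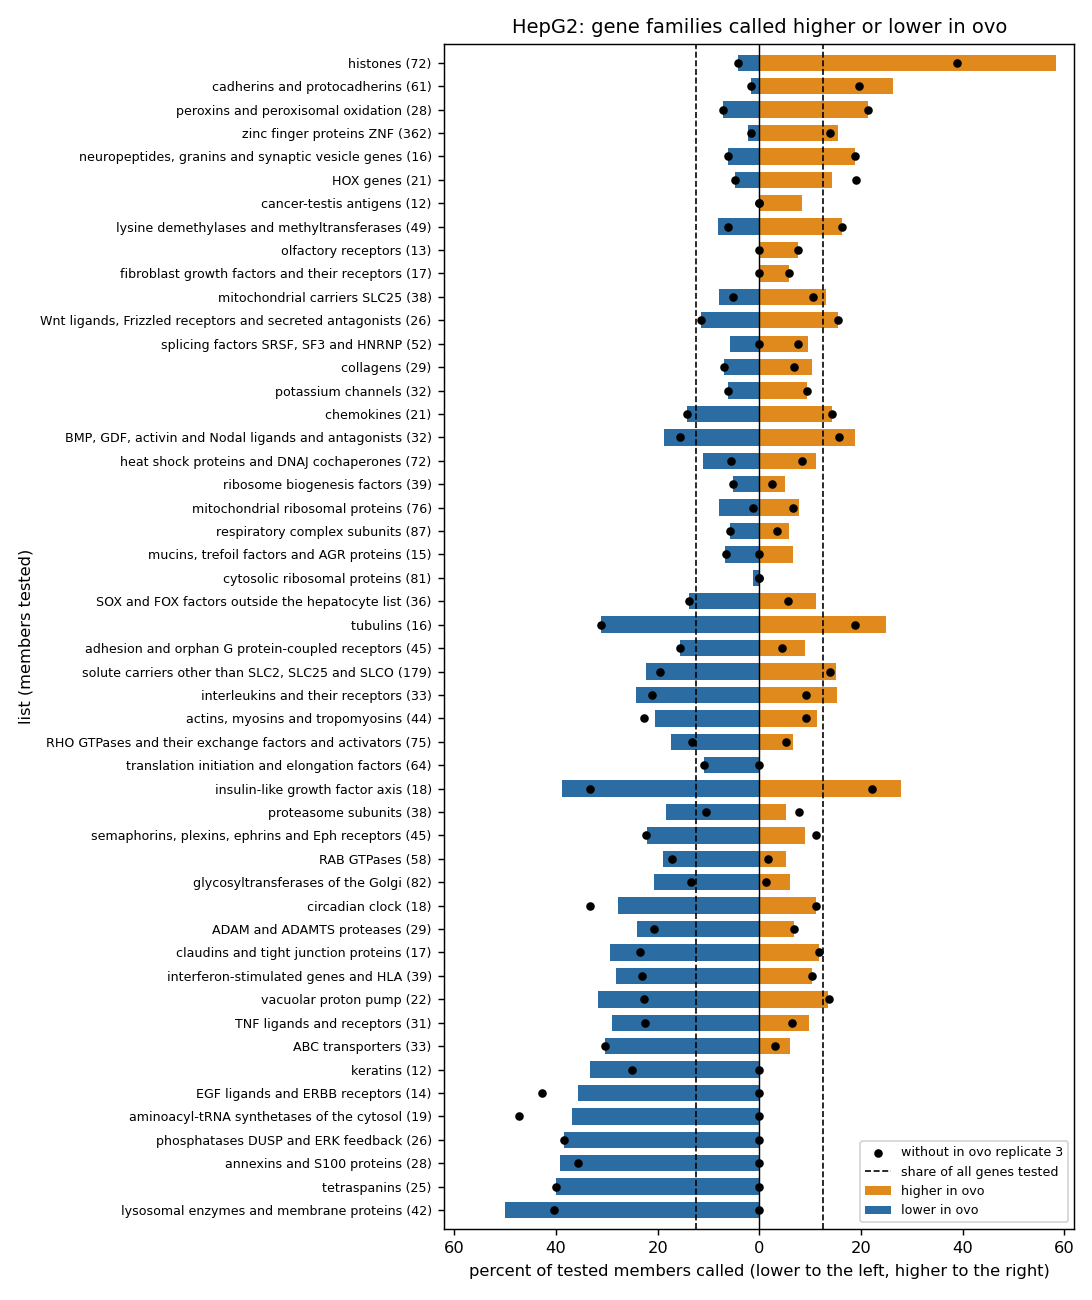
Percent of tested members called lower (to the left) and higher (to the right) in HepG2 tumours for gene families outside the liver, cell cycle and stress lists (12 or more tested members), with points for the shares without tumour 3 and dashed lines for the shares over all genes. Histones reach 58.3% on the higher side and lysosomal proteins 50% on the lower side.

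Of the 42 lysosomal genes tested, 21 were called lower, 0 higher, and the other 21 did not pass. NPC1, the membrane protein that exports cholesterol from lysosomes, fell from 96.6, 92.4 and 90.2 CPM to 27.6, 31.0, 15.3 and 24.6 CPM (-1.92 ± 0.31 SE, adjusted p = 4.69e-05). Cultures and tumours did not overlap for NPC1, and its call remained without tumour 3. The vacuolar proton pump, which acidifies the same organelle, had 7 of 22 members lower (31.8%) and 3 higher. Its subunit ATP6V1E1 fell from 38.6, 31.6 and 35.4 CPM to 19.2, 14, 3.87 and 11.8 CPM (-1.62 ± 0.41 SE, adjusted p = 0.00431), whereas the call of ATP6AP2 (-1.59, adjusted p = 0.0394) was lost without tumour 3 (-0.95, adjusted p = 0.184).

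**Figure D3:**
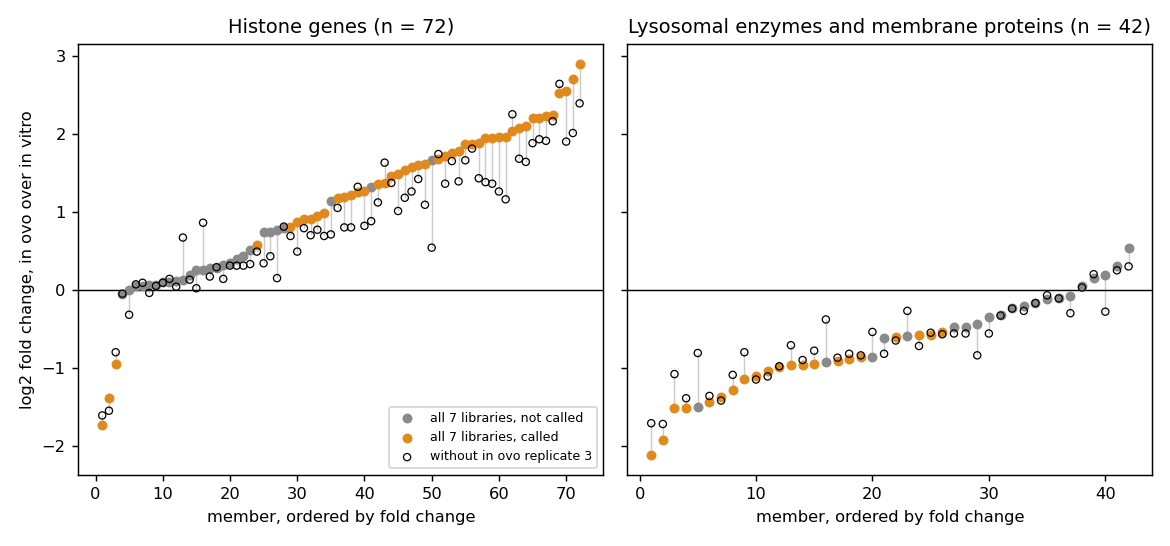
Log2 fold change, in ovo over in vitro, of each tested member of the histones (n = 72) and of the lysosomal genes (n = 42), ordered by value, with filled points for all 7 libraries (orange where called) and open points without tumour 3. Most histones lie above 0 and most lysosomal genes below 0 with and without tumour 3, and many open histone points sit lower than the filled ones.

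Other organelle families split. RAB GTPases, which direct vesicle traffic, had 11 of 58 lower (19.0%) and 3 higher. RAB3B, a regulated secretion RAB, fell from 138, 147 and 142 CPM to 8.69, 11, 19.6 and 14.1 CPM (-3.38 ± 0.39 SE, adjusted p = 4.12e-07). Golgi glycosyltransferases had 17 of 82 lower (20.7%) and 5 higher, but 11 and 1 without tumour 3. GCNT3, which branches mucin-type glycans, fell from 33.5, 32.7 and 28 CPM to 5.85, 3.71, 2.65 and 4.02 CPM (-2.71 ± 0.31 SE, adjusted p = 3.65e-07). Peroxins and enzymes of peroxisomal oxidation leaned upward, with 6 of 28 higher (21.4%) and 2 lower, among them the thiolase ACAA1 at 246, 255 and 269.5 CPM in cultures and 477, 597, 893 and 612 CPM in tumours (1.29 ± 0.32 SE, adjusted p = 0.00349). The lowest ACAA1 tumour lay well above the highest culture.

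Annexins, S100 proteins and keratins had calls on the lower side only. The annexin and S100 group, which binds calcium at membranes, had 11 of 28 lower (39.3%) and 0 higher, and 10 lower without tumour 3. S100A11 fell from 40.8, 36.7 and 38.8 CPM to 1.95, 1.61, 3.06 and 2.17 CPM (-3.66 ± 0.30 SE, adjusted p = 1.20e-09). Keratins, the intermediate filaments of epithelia, had 4 of 12 lower (33.3%) and 0 higher. KRT18, the main type I keratin of hepatocytes, fell from 3134, 2928 and 3094 CPM to 813, 785, 655 and 704 CPM (-2.05 ± 0.23 SE, adjusted p = 2.76e-07), and KRT23 fell from 82.4, 79.6 and 78.9 CPM to 5.40, 3.23, 15.1 and 3.56 CPM (-3.61 ± 0.39 SE, adjusted p = 1.30e-07). The model's KRT18 values include 1 PLC/PRF/5 tumour value restored from its column total. The 4 HepG2 tumours lay in a narrow range for KRT18, and tumour 3 was the high one for KRT23.

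Tubulins were mixed, with 4 of 16 higher and 5 lower. TUBB6 fell from 27.1, 27.1 and 25 CPM to 2.10, 2.91, 1.43 and 2.32 CPM (-3.12 ± 0.33 SE, adjusted p = 7.51e-08). Actins, myosins and tropomyosins had 9 of 44 lower and 5 higher, with the motor MYO1C lower (-1.70 ± 0.39 SE, adjusted p = 0.00212) and the light chain MYL5 higher (2.22 ± 0.35 SE, adjusted p = 3.24e-05). MYL5 read 3.93, 3.80 and 2.98 CPM in cultures and 15.6, 16, 38.3 and 17.0 CPM in tumours, so 3 of the 4 tumours lay within 2 CPM of each other. Without tumour 3 the fold changes were 1.92 for MYL5 and -1.21 for MYO1C.

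At the cell surface, tetraspanins, which organise membrane microdomains, had 10 of 25 lower (40%) and 0 higher, also 10 and 0 without tumour 3. TSPAN4 fell from 116, 121 and 126 CPM to 22.9, 18.2, 33.9 and 19.5 CPM (-2.35 ± 0.26 SE, adjusted p = 1.53e-07), and CD9 fell from 45.4, 35.5 and 35.1 CPM to 9.29, 11.9, 6.73 and 7.59 CPM (-2.02 ± 0.28 SE, adjusted p = 5.64e-06). Claudins and tight junction proteins had 5 of 17 lower (29.4%) and 2 higher. CLDN4 fell from 273, 291 and 309 CPM to 24.9, 22.0, 9.18 and 19.2 CPM (-3.96 ± 0.24 SE, adjusted p = 5.39e-12), with no tumour near the cultures. Semaphorins, ephrins and their receptors had 10 of 45 lower (22.2%) and 4 higher, led on the lower side by SEMA3B and EPHA2, at -2.26 ± 0.63 and -2.08 ± 0.26 (SE).

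Among transporters, ABC pumps had 10 of 33 lower (30.3%) and 2 higher. ABCG8, a sterol exporter of hepatocytes, rose from 26.4, 29.8 and 32.8 CPM to 83.2, 102, 143 and 139 CPM (1.91 ± 0.24 SE, adjusted p = 1.10e-06). Solute carriers other than SLC2, SLC25 and SLCO had 40 of 179 lower (22.3%) and 27 higher (15.1%). SLC7A11, the cystine importer, fell from 44.7, 42.5 and 43.9 CPM to 6.45, 4.04, 1.02 and 3.10 CPM (-3.41 ± 0.38 SE, adjusted p = 2.46e-07). Of 6 aquaporins tested, AQP7 and AQP11 rose, from 7.85, 6.24 and 8.16 CPM to 24, 24.9, 27.1 and 30.7 CPM and from 40.4, 42.9 and 44.8 CPM to 93.7, 103, 148 and 102 CPM. Both water and glycerol channels separated the conditions in all 7 libraries.

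Signalling families had calls in both directions, with exceptions. Dual specificity phosphatases and other feedback inhibitors of ERK had 10 of 26 lower (38.5%) and 0 higher, also 10 and 0 without tumour 3. DUSP5 fell from 20.2, 19.2 and 19.5 CPM to 1.05, 1.29, 1.02 and 1.08 CPM (-3.29 ± 0.28 SE, adjusted p = 2.59e-09), and DUSP8 fell from 55.5, 55.8 and 58.8 CPM to 7.2, 6.94, 13.7 and 8.51 CPM (-2.56 ± 0.20 SE, adjusted p = 6.78e-10). EGF ligands and ERBB receptors had 5 of 14 lower (35.7%) and 0 higher, with ERBB3, a receptor for neuregulin, at -0.98 ± 0.20 (SE, adjusted p = 6.49e-04) after AREG. The ERBB3 values were 826, 877 and 839.9 CPM in cultures and 333, 414, 545 and 456 CPM in tumours, without overlap.

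The insulin-like growth factor axis had 7 of 18 lower (38.9%) and 5 higher (27.8%). Against the higher IGF2 stood IGFBP1, a binding protein secreted by liver, which fell from 490.1, 465 and 499 CPM to 34, 46.5, 42.0 and 39.9 CPM (-3.55 ± 0.18 SE, adjusted p = 3.01e-13), with all 4 tumours close together. TNF ligands and receptors had 9 of 31 lower (29%) and 3 higher, and interferon-stimulated and HLA genes 11 of 39 lower (28.2%) and 4 higher. GBP2, a guanylate-binding protein induced by interferon, fell from 20.6, 16 and 14.9 CPM to 0.150, 1.29, 1.63 and 0.619 CPM (-3.30 ± 0.34 SE, adjusted p = 5.31e-08). The chemokine CCL20, which attracts cells with the receptor CCR6, fell from 78.5, 62.4 and 65.4 CPM to 13.0, 16, 5.71 and 13.5 CPM (-2.49 ± 0.26 SE, adjusted p = 8.84e-08). The interleukin 6 receptor (IL6R) fell from 34.6, 33.2 and 34.8 CPM to 2.55, 4.68, 0.612 and 2.63 CPM (-3.42 ± 0.35 SE, adjusted p = 6.25e-08). These 3 genes of inflammation were lower in all 4 tumours, but their families had calls both ways. Of 21 chemokines tested, 3 were called higher and 3 lower (14.3% each). Of 33 interleukins and their receptors, 5 were called higher (15.2%) and 8 lower (24.2%).

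In the BMP and activin group the calls were 6 higher and 6 lower of 32. INHBB, an activin subunit, fell from 13.6, 16.2 and 18.7 CPM to 0.150, 2.74, 1.02 and 0.929 CPM (-3.07 ± 0.45 SE, adjusted p = 1.07e-05), and follistatin (FST), which binds activin, fell from 20.6, 15.5 and 16.3 CPM to 5.40, 4.04, 0.816 and 3.25 CPM (-2.21 ± 0.30 SE, adjusted p = 4.95e-06). An activin subunit and an activin inhibitor were thus both lower. Circadian clock genes had 5 of 18 lower (27.8%) and 2 higher, with BHLHE40, a repressor, lower (-1.56 ± 0.34 SE, adjusted p = 0.00128) and TEF, a PAR bZIP factor, higher (1.58 ± 0.20 SE, adjusted p = 1.09e-06).

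Ribosomal proteins and respiratory complex subunits showed few calls. Of 81 cytosolic ribosomal proteins 0 were called higher and 1 lower, RPS27, whose amplicon matches 2 genes and whose call was lost without tumour 3 (adjusted p = 0.0306 and 0.136). Of 87 respiratory complex subunits 5 were higher and 5 lower, and of 76 mitochondrial ribosomal proteins 6 and 6. Translation initiation and elongation factors had 7 of 64 lower (10.9%, near the background of 12.4%) and 0 higher, with a median of -0.36. Aminoacyl-tRNA synthetases of the cytosol, which charge tRNAs, had a larger share, with 7 of 19 lower (36.8%) and 0 higher, and 9 lower without tumour 3. TARS fell from 90.6, 95.9 and 96.5 CPM to 40, 42.6, 20 and 34.7 CPM (-1.49 ± 0.27 SE, adjusted p = 2.04e-04), and CARS fell from 30.6, 28.2 and 27.9 CPM to 9.74, 8.72, 1.22 and 8.67 CPM (-2.12 ± 0.53 SE, adjusted p = 0.00414). Tumour 3 was the lowest of the 4 for both, the CARS fold change without it was -1.57, and the family in tumour 3 lay at a median of -0.93 from the other tumours.

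The response of HepG2 was next tested against the mean response of Hep3B, HuH7 and PLC/PRF/5, as an interaction contrast in the same model. It was higher in HepG2 for 930 genes (7.10%) and lower for 1702 (13.0%). These counts moved with the setting, to 1288 and 1384 under total-read scaling, 555 and 1475 in edgeR's test on the recovered reads, and 1875 and 2646 without the 4 tumours numbered 3, a setting chosen after seeing the data. Among genes averaging at least 10 CPM, 827 were called in both contrasts. ENPP2 had the largest positive difference by the naming rule, 5.14 (adjusted p = 7.87e-14): its log2 fold change was 3.92 for HepG2 against -2.33 (Hep3B), -1.93 (HuH7) and 0.61 (PLC/PRF/5). KNG1, the kininogen of plasma, rose by 3.00 in HepG2 (5.47, 5.75 and 7.06 CPM against 49.6, 44.7, 58.5 and 72.9 CPM), with -0.39, -2.90 and 1.13 in the other lines in that order (difference 3.72, adjusted p = 5.70e-08). For both genes the value in HepG2 was positive and that in Hep3B and HuH7 negative.

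DKK1 had 2.87 in HepG2 and -3.57, 0.04 and 0.66 in the other lines (difference 3.82, adjusted p = 9.56e-06). PPP1R1A had 4.48 in HepG2 and -1.06, 0.45 and 0.38 in the other lines (difference 4.56, adjusted p = 5.20e-09). CD36, a scavenger receptor for fatty acids and lipoproteins, read 8.41, 7.84 and 7.61 CPM in HepG2 cultures and 42.4, 43.6, 46.5 and 48.6 CPM in tumours, a fold change of 2.37 against 0.23, 0.38 and -1.55 (difference 2.68, adjusted p = 1.33e-09). The 4 tumours were close together for CD36, tumour 3 included. CYP7A1, CRIP3 and PGLYRP2 completed the 8 highest, with differences of 3.77, 3.18 and 2.87, although the fold change of PGLYRP2 was 8.81 in Hep3B beside 6.49 in HepG2.

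The 8 lowest differences came from genes whose log2 fold changes in the other lines lay between -1.37 and 1.60. NGFR had -4.39 in HepG2, from 32.2, 46.8 and 53.5 CPM to 0.600, 1.94, 1.63 and 0.619 CPM, and 0.32, 0.84 and 0.32 in the others (difference -4.88, adjusted p = 2.70e-10). AZGP1 had -3.99, from 399.7, 368 and 362 CPM to 30.4, 25.7, 13.1 and 25.9 CPM, and 1.43, 0.18 and 0.46 in the others (difference -4.68, adjusted p = 1.27e-12). CYP2S1, an extrahepatic cytochrome P450, had -4.09, from 63.1, 69.7 and 62.8 CPM to 2.25, 2.58, 4.89 and 2.32 CPM, and -0.01, 0.58 and 0.57 in the others (difference -4.47, adjusted p = 1.07e-08). The remaining 5, ABCC3, CPLX2, SLC2A1, L1CAM and KLF5, had differences of -5.90 to -4.63. All 16 of these differences passed the threshold again without HepG2 tumour 3, with adjusted p of 2.80e-05 or less. In edgeR's quasi-likelihood test on the recovered reads, CPLX2, CRIP3, CYP7A1, ENPP2, PGLYRP2 and PPP1R1A did not pass (adjusted p of 0.88 to 1), and each of these 6 has at least 1 group of libraries without a read, which none of the 10 that passed has.

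**Figure D4:**
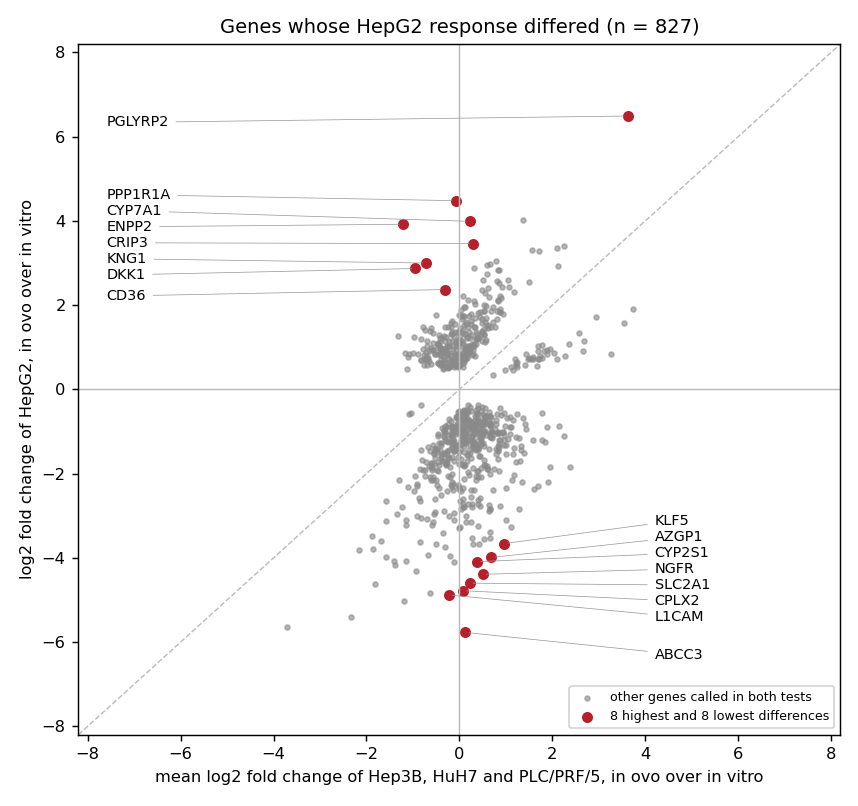
Log2 fold change of HepG2 (vertical) against the mean of the other 3 lines (horizontal) for the genes averaging at least 10 CPM and called in both contrasts (n = 827), with the 16 named genes labelled. ENPP2 sits at 3.92 in HepG2 with a negative mean in the other lines, and ABCC3 at -5.77.

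Tumour 3 was then described on its own. For each of the 6511 genes averaging at least 10 CPM in the tumours, its log2(CPM + 1) was set against the mean of the other 3 HepG2 tumours, with no test because it is 1 library. It lay more than 2-fold above them for 1193 genes (18.3%) and more than 2-fold below for 1125 (17.3%), and the SD of this difference over genes was 1.13. The same measure among tumours 1, 2 and 4 gave SDs of 0.37, 0.17 and 0.35, and at most 120 genes more than 2-fold away in either direction. Under total-read scaling the split for tumour 3 was 487 above and 1655 below, of 6253 genes.

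The deviation was next compared with those in the other lines. Over the 6511 genes it correlated with that of the HuH7 tumour numbered 3 from the other HuH7 tumours at a Pearson r of 0.93, with that of PLC/PRF/5 tumour 3 at 0.67 and with that of Hep3B tumour 3 at 0.44. For the other 9 tumours of these lines r ran from -0.84 to 0.23, with -0.58 for Hep3B tumour 4, and the deviations within a line depend on each other because each is taken from the mean of the rest. These are descriptions across genes, which share a panel and are not independent. The 4 tumours numbered 3 also share a letter in their titles, whose meaning the labels do not give. Of the 10 genes most raised and the 10 most lowered in HepG2 tumour 3, all 20 deviated the same way by more than 2-fold in HuH7 tumour 3. In PLC/PRF/5 the tumour numbered 3 was the extreme of its group for 10 of the raised and 9 of the lowered genes, and in Hep3B for 3 and 8.

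SAFB, a nuclear matrix protein that binds DNA and RNA, read 9.89, 11.9, 222 and 12.5 CPM in HepG2 tumours 1 to 4 and 9.53, 6.73 and 8.27 CPM in cultures. DNAAF2, a factor that assembles dynein arms of cilia, read 2.25, 3.07, 75.5 and 4.18 CPM in tumours and 5.61, 4.16 and 6.29 CPM in cultures. COL18A1, whose product is cut to release endostatin, read 106, 112, 2840.3 and 354 CPM in tumours and 140.5, 134 and 160.4 CPM in cultures. In each, tumour 3 exceeded all 6 other HepG2 libraries many times over, while tumours 1 and 2 stayed far nearer to the cultures. HINT3, MIS18A, MRPS26, BNIP2, NOL7, SOCS1 and HIST2H3A behaved alike, with differences of 3.97 to 4.49 (log2), the amplicon of HIST2H3A matching 2 genes.

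In the other direction, COL27A1, a fibrillar collagen, read 116, 97.8, 4.28 and 98.5 CPM in tumours and 89.6, 80.6 and 81.5 CPM in cultures. CALU, a calcium-binding protein of the secretory pathway, read 107, 85.4, 3.67 and 62.8 CPM in tumours and 166, 144 and 149.7 CPM in cultures. TRIM71, an RNA-binding ubiquitin ligase of stem cells, read 33.6, 29.2, 0.612 and 21.8 CPM in tumours and 32.4, 31.7 and 30.3 CPM in cultures. Tumour 3 was the single low library for COL27A1 and TRIM71, whereas all tumours were below the cultures for CALU. TNFRSF1A, TMEM50A, ARF4, NAP1L1, HSPA8, DSC2 and ZNF217 made up the rest of the 10, at -3.96 to -3.65. The deviation is followed below by the composition of the amplicons, so a few of them are shown.

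These are the 3 raised and 3 lowered amplicons just described, printed 5′ to 3′ in the sense of the transcript from the annotation deposited with the panel, with CpG dinucleotides in capitals. Positions are on GRCh38 from a match to GENCODE 29 transcripts. The raised amplicons lie at chr14:49633744-49633878 on the minus strand (DNAAF2), chr19:5667386-5667865 on the plus strand across 2 exons (SAFB) and chr21:45512205-45512347 on the plus strand (COL18A1). The lowered ones lie on the plus strand at chr9:114309408-114310652 across 2 exons (COL27A1), chr7:128767493-128767602 (CALU) and chr3:32891422-32891652 (TRIM71).
DNAAF2: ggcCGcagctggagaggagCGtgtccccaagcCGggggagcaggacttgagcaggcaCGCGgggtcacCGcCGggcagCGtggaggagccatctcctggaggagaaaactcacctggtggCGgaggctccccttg
SAFB: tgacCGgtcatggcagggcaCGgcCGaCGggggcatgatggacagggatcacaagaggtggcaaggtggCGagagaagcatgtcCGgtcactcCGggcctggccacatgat
COL18A1: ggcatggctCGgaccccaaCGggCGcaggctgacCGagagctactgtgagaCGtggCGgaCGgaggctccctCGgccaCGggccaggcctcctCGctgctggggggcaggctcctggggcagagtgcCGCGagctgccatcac
COL27A1: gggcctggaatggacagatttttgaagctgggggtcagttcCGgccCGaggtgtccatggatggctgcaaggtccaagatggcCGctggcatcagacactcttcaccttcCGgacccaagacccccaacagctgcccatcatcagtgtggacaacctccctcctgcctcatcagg
CALU: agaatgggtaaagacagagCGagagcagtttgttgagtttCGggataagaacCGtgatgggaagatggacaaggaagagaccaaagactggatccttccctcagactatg
TRIM71: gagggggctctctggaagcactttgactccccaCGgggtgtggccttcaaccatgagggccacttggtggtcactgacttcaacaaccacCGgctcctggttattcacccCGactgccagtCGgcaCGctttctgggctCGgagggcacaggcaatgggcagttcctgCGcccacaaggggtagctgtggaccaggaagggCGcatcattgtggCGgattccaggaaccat
The raised amplicons were 135, 111 and 143 bases long with 69.6%, 64.0% and 72.7% GC and 9, 7 and 12 CpG. The lowered were 175, 110 and 231 bases long with 59.4%, 47.3% and 61% GC and 4, 3 and 9 CpG. The lowered examples thus had less GC than any of the raised ones, but their CpG counts overlapped.

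The same properties were followed over all 6511 genes. The median difference of tumour 3 was -0.53 (log2) for the 293 amplicons under 45% GC, 0.15 for 1751 at 55% to 60% and 1.57 for the 99 at 70% or more. By length it was 0.48 for 2065 amplicons of 100 to 125 bases and -0.73 for 495 of 200 bases or more. By exons it was 0.38 for 2479 amplicons within 1 exon and -0.69 for the 89 that span 4 or more. The Spearman correlation across genes was 0.30 with GC content, -0.30 with length and 0.20 with the number of CpG. Whether GC, length or exon number plays a part in the deviation was not tested.

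**Figure D5:**
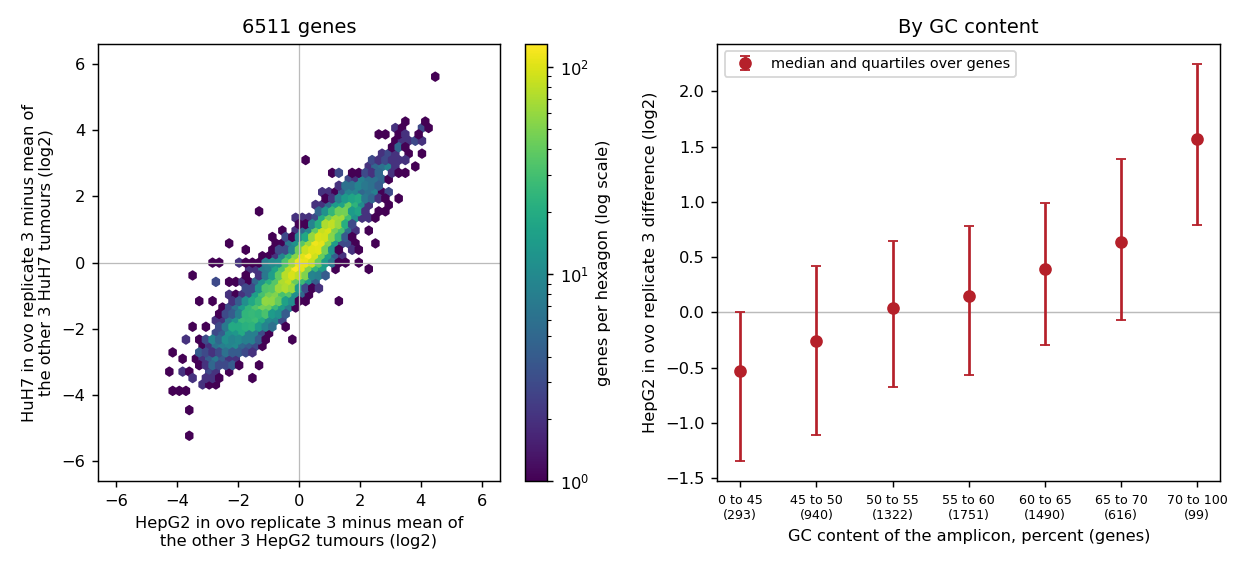
Left, difference of HepG2 tumour 3 from the mean of the other 3 HepG2 tumours (log2, horizontal) against the same for HuH7 tumour 3 (vertical) over 6511 genes, shaded by genes per hexagon on a log scale. Right, the HepG2 difference by GC content of the amplicon, as medians with quartiles, which run from -0.53 in the lowest class to 1.57 in the highest.

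The HepG2 comparison was set beside the same properties. Across genes the log2 fold change correlated with GC content at a Spearman rho of 0.28 with tumour 3 and 0.16 without it, and with amplicon length at -0.29 and -0.21. Of the 146 genes chosen for naming by their change between conditions or between lines, 131 kept their call without tumour 3. Those that lost it were C3, GPC3, A2M and PEG10 among abundant genes and, among family members, TNFRSF1A, ARHGEF2, EIF1, CCT8, ATP6AP2, DDX21, KDM6B, PSMA1, RPS27, NCL and SRSF2. The amplicons of PSMA1, RPS27 and SRSF2 match 2 genes each. Counting ARF4 as well, 16 printed genes lost their call without tumour 3, 16, 14 and 13 of the same genes lost it without culture 1, 2 or 3, 4 (NCL, PEG10, PSMA1 and RPS27) without tumour 4 and 1 (PEG10) without tumour 2.

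ARHGEF2, an activator of RHOA held on microtubules, shows the pattern, with 32.9, 26.7 and 28.5 CPM in cultures and 10.6, 12.1, 0.408 and 9.91 CPM in tumours. Its log2 fold change was -2.12 (adjusted p = 0.0182) with tumour 3 and -1.35 (adjusted p = 0.0851) without it, although the 3 other tumours were also below the cultures. EIF1, a start codon selection factor, had 15.4, 13.0 and 15.3 CPM against 7.94, 5.16, 0 and 2.01 CPM, with fold changes of -2.11 and -1.50 and adjusted p of 0.0178 and 0.0847. NCL, the nucleolar protein nucleolin, had 563, 708 and 950.0 CPM against 691, 1276, 2525 and 2110.0 CPM, so its conditions overlapped even with tumour 3 (adjusted p = 0.0408, and 0.153 without it).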

How the data were processed

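Targeted amplicon expression was measured in 28 libraries, 7 of them from HepG2. The authors deposited 1 table of signal values for 18961 amplicons, each library scaled to a total of 500000, as the values show. The genome build was hg38 per the submitters' processing notes. For the aligner and the read counting: not given in the sources used here. Amplicon length and sequence come from the deposited table, and the samples were mapped to columns by their titles.

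Reads were recovered from the step size of each library's values (99.9684% to 100.0% of values whole within 0.01), which gave 6255590 to 8662998 reads in the HepG2 libraries. A count of 3 reads was taken as the floor, which covers counting error only. One damaged cell, in a PLC/PRF/5 tumour library (KRT18), was set from the column's total, 26 symbols that had been turned into dates were restored, and 10 duplicated symbols were kept apart. Because the table holds scaled values, the model was limma 3.58.1 (trended variance, 20 residual degrees of freedom) on log2(CPM + 1) after TMM scaling in edgeR 4.0.16 under R 4.3.3, over 13100 genes that passed filterByExpr with a minimum of 10 reads. It had no replicate block, because the labels give no meaning to the numbers. Deviations of HepG2 cultures and tumours with the same number correlated at 0.4, -0.06 and 0.2, which does not settle whether they are paired. Tumours numbered 3 share a deviation across lines that the model does not include. Amplicons were matched to GENCODE 29 transcripts (18853 placed, 108 not placed, 1238 matching 2 or more genes).

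Genes were named by rule: the 14 highest and 14 lowest fold changes outside the usual lists among called genes averaging at least 10 CPM without overlap; up to 2 called members of each other list averaging at least 5 CPM, of which a selection is printed and some are not reported here; the 8 largest gains and losses in CPM; the 10 highest and lowest deviations of tumour 3; the 8 highest and lowest differences from the other lines; the 6 largest changes each way among genes at 3 reads or fewer in the other condition; and the cell type markers. The HepG2 libraries, the 19 usual and 53 other lists and these rules were chosen with earlier results of these data known. Alternatives were other scalings, filters, pseudocounts, edgeR's quasi-likelihood test, the replicate block, removal of GC and length trends, HepG2 fitted alone and each library left out in turn.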

Additional observations from a re-analysis of the deposited data

Results flagged for a closer look

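In a group of 4 tumours, a library whose gap to its nearest neighbour, as a share of the group's range, exceeds Dixon's critical value stands apart, and chance alone marks about 1 in 20 groups. Of 148 printed genes, HBZ not counted, 31 passed it. For 29 of these the library was HepG2 tumour 3, the highest of the 4 in 17 and the lowest in 12. The genes where tumour 3 was highest, with the gap as a share of the range, were HIST1H2BM (0.956), SAFB (0.928), HIST1H2AJ (0.918), MYL5 (0.904), PPP1R1A (0.900), HIST2H3C (0.886), HINT3 (0.874), SRSF2 and ZNF714 (0.864 each), NOL7 (0.862), MIS18A (0.854), DNAAF2 and TEF (0.852 each), BNIP2 (0.850), FBLIM1 (0.846), CYP2S1 (0.836) and MRPS26 (0.832). Those where it was lowest were ACTA2 (0.947), COL27A1 (0.946), CARS (0.933), GPRC5C (0.926), ARHGEF2 (0.918), MYO1C (0.907), C3 (0.900), TMEM50A (0.899), AHSG (0.895), TRIM71 (0.865), TNFRSF1A (0.849) and CALU (0.833). Some of these genes were named because tumour 3 deviates in them, so their number is a description. CSF1R and LUM (1.000 each) were marked for tumour 4 because of a single read.

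The HepG2 response differed from the mean response of the other 3 lines by test for 16 named genes. The differences (log2) were 5.14 for ENPP2, 4.56 for PPP1R1A, 3.82 for DKK1, 3.77 for CYP7A1, 3.72 for KNG1, 3.18 for CRIP3, 2.87 for PGLYRP2 and 2.68 for CD36. On the lower side they were -5.90 for ABCC3, -4.88 for NGFR, -4.87 for CPLX2, -4.82 for SLC2A1, -4.68 for AZGP1, -4.65 for L1CAM, -4.63 for KLF5 and -4.47 for CYP2S1.

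The 5861 amplicons that were not tested also gave reads. At least 1 read was found for 17.3%, 17.1% and 18.8% of them in the HepG2 cultures and for 18.3%, 47.9%, 29.9% and 28.6% in tumours 1 to 4. These amplicons took at most 0.147% of a HepG2 library's reads.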

How the results depend on the processing

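Whether the replicate numbers pair cultures with tumours is not labelled, and the deviations do not settle it. Same-numbered deviations correlated at 0.4, -0.06 and 0.2, and the highest correlations with another number were 0.14, 0.19 and -0.1. With the replicate block the HepG2 comparison gave 2017 genes higher and 2213 lower, and the comparison with the other lines 1028 and 1868. No printed gene lost its call there, HBZ not counted. Leaving out 1 HepG2 library at a time gave 1158 to 1881 genes higher and 1166 to 1890 lower in ovo, and 662 to 1184 higher and 1308 to 1966 lower against the other lines. Leaving out HepG2 tumours 2 and 3 together, an alternative chosen after seeing the data, gave 1060 and 1072. Leaving out the 4 tumours numbered 3, also chosen after seeing the data, gave 2271 and 2107 in HepG2 and 1875 and 2646 against the other lines. edgeR on the recovered reads gave 555 genes higher against the other lines, and the cause was not tested. Total-read scaling left 487 genes over 2-fold higher in tumour 3, moved the split of the HepG2 comparison to 1199 higher and 2080 lower, and turned the comparison with the other lines from 930 and 1702 to 1288 and 1384, with a median shift of 0.14. ALB, which was not called, had -0.75 without tumour 1 and values above 0 under edgeR (0.07), after removal of GC and length trends (0.02), without tumour 3 (0.31), without the 4 tumours numbered 3 (0.33) and without tumours 2 and 3 (0.43).

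Of 124 printed genes called in HepG2, HBZ not counted, 98 kept the call under all 19 alternatives and none that was called changed direction. The most calls lost under a single alternative were 25, without tumours 2 and 3, and 11 were lost with HepG2 fitted alone. The counts for histones called higher ran from 22 to 46 and those for lysosomal genes called lower from 12 to 25. Depth limits what can be said of genes near 3 reads, which correspond to 0.346 to 0.48 CPM in these libraries.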

Other observations

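Other transcripts of HepG2 tumours that belong to no family described above moved with the condition or with tumour 3. HSPB1, a small heat shock protein that protects the cytoskeleton, rose from 209.6, 231 and 213 CPM in cultures to 617, 736, 1069 and 683 CPM in tumours (1.80 ± 0.32 SE, adjusted p = 1.47e-04). The metallothionein MT1G, which binds zinc and copper, rose from 25.2, 22.6 and 22.7 CPM to 30.6, 73.3, 195 and 109.9 CPM (1.79 ± 0.48 SE, adjusted p = 0.00686), with tumour 1 nearest to the cultures and a fold change of 1.38 without tumour 3. COL2A1, the main collagen of cartilage, rose from 196, 219.8 and 208 CPM to 468, 669, 1519 and 819 CPM (1.92 ± 0.40 SE, adjusted p = 8.08e-04), and COL26A1 from 9.81, 11.8 and 11.6 CPM to 32.4, 45, 164 and 49.8 CPM (2.32 ± 0.42 SE, adjusted p = 1.88e-04). Without tumour 3, the highest in both, the fold changes were 1.61 and 1.83. Of 29 collagens tested, 3 were called higher (10.3%) and 2 lower (6.90%), below the shares of 12.6% and 12.4% over all genes, with a median of 0.00. DDC, the decarboxylase that makes dopamine and serotonin, rose from 44.4, 47.1 and 45.3 CPM to 136, 130.1, 117 and 153 CPM (1.53 ± 0.21 SE, adjusted p = 5.98e-06), with tumour 3 the lowest of the 4.

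Among orphan receptors, GPRC5A, which is induced by retinoic acid, fell from 19.6, 24.5 and 23.8 CPM to 0.450, 2.26, 0.816 and 1.08 CPM (-3.52 ± 0.33 SE, adjusted p = 1.65e-08), and GPRC5C fell from 221, 231 and 229 CPM to 59.4, 63.1, 27.3 and 60.4 CPM (-2.16 ± 0.26 SE, adjusted p = 9.26e-07). KCNJ10, an inwardly rectifying potassium channel, fell from 24.1, 26.2 and 23.3 CPM to 3.45, 4.2, 0.816 and 2.79 CPM (-2.84 ± 0.21 SE, adjusted p = 1.47e-10). SOX4, a developmental factor, fell from 16.8, 17.6 and 22.9 CPM to 3.75, 6.29, 7.55 and 6.50 CPM (-1.54 ± 0.25 SE, adjusted p = 4.61e-05). The conditions did not overlap for any of these genes.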
